A study of Mus musculus with 19 samples.

Results

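Proteasome subunit genes are the genes of the mouse genome whose symbol is Psma, Psmb, Psmc or Psmd and a number, and 38 of the 24689 genes of the deposited expression table carry such a symbol. They were taken by symbol alone, with no use of measured values. The study measured polyA RNA by bulk RNA sequencing in tongue epithelium of mice that switch on viral oncogenes, an activated form of YAP1, or both. Here 19 libraries, each from 1 mouse of 8 to 16 weeks, are compared in 4 groups, all taken 15 days after induction. The methods of the study describe its transgenic experiments as made in littermates balanced for age and sex. The litter and sex of single mice are not known here. The epithelium was parted from tongue muscle with collagenase and dispase before RNA was made. Every mouse received tamoxifen in the tongue and food with doxycycline. In the induced groups Krt14-CreERT acts in KRT14-positive basal cells, where it removes a stop before the rtTA gene (LSL-rtTA), so that doxycycline can start the tetON transgenes. The methods of the study also name a tetON_H2B-GFP reporter in the line, which the sample labels do not list.

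The N group (n = 5) has no active effector transgene. N1, N2 and N3 carry Krt14-CreERT and LSL-rtTA, N4 carries LSL-rtTA without Cre, and N5 carries Krt14-CreERT with both effector transgenes but without rtTA, so that N mixes 3 genotypes. The E group (n = 5) adds tetON_E6-E7 to Krt14-CreERT and LSL-rtTA and makes the E6 and E7 proteins of human papillomavirus. The Y group (n = 3) adds tetON_YAP1S127A instead, a YAP1 that is constitutively active, and the EY group (n = 6) adds both transgenes. Transgenes start only in cells in which Cre has acted, while the RNA comes from the whole dissected layer, so induced and uninduced cells are averaged. The reads recovered from the table number 8269674 to 11007304 per mouse, with a median of 9249340.

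The 26S proteasome degrades proteins tagged with ubiquitin. Its 20S core is a barrel of alpha and beta rings, with the proteolytic activities inside the beta rings, and its 19S cap binds, unfolds and feeds in the tagged protein through a ring of ATPases, a base and a lid. Cells exposed to interferon gamma make other catalytic subunits that are built into new cores in place of the usual ones, forming the immunoproteasome, which favours peptides that fit MHC class I molecules, and squamous epithelium, such as that of the tongue, uses the ubiquitin system throughout its renewal.

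Values are TPM (transcript units scaled to the same total in each mouse) as deposited, fitted with limma as log2(TPM + 0.1). "Higher" and "lower" mean an adjusted p below 0.01 over the 22745 genes tested, and a DEG has in addition a log2 fold change beyond 1 in size. An adjusted p measures how far a difference between group means stands out against the spread between mice, not its size. Of the 38 members 37 were tested. Psma8, a testis form of an alpha subunit, had 12 reads over all mice and was not tested, and Psmb11, the thymus form of a catalytic subunit, has no entry in the table. Deposited TPM are reads divided by the span of the gene with its introns, as 98.9% of 23803 genes lie within 5% of that relation. For transcript length it is 2.8%. Levels of different members are therefore compared only after dividing reads by transcript length. Sums over marker lists, and the gene said to lead each list, use TPM as deposited.

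In TPM by transcript length the proteasome genes form a narrow band of abundant transcripts, with a few far below it. For the 31 members of the constitutive 20S and 19S particles, the median of the group medians is 144 in N, 160.0 in E mice, 208 in Y and 235 in EY. In N the band runs from 50.5 to 293, with Psmd8 at 293, Psma7 at 278, Psmb3 at 265 and Psmb6 at 242 on top. In EY it runs from 79.7 to 479, led by Psma7 at 479, Psmb3 at 430.3, Psmb6 at 341, Psmb7 at 333 and Psmb4 at 332. Psmd8 is first of all members in N and in place 12 in EY. The lowest members in N after Psma8 at 0 are Psmb8 at 5.71, Psmb9 at 7.09, Psmd9 at 10.4 and Psmb10 at 11.2, so the 3 immunoproteasome genes are near the floor of the family in normal tongue. In EY they stand at 61.4 for Psmb8, 47.1 for Psmb9 and 39.8 for Psmb10, still below the band of the constitutive members.

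Most proteasome genes had more RNA in EY mice than in N mice, by amounts that differ between subunits. In Y mice fewer of them passed the test, and the median over members lay between those of N and EY. With E6-E7 alone no member passed the test, while Psmb8 and Psmb9 of the immunoproteasome lay above all N mice in 4 of 5 E mice. The 3 comparisons against N share the same N mice, so they are given side by side and not as support for each other.

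**Figure D1:**
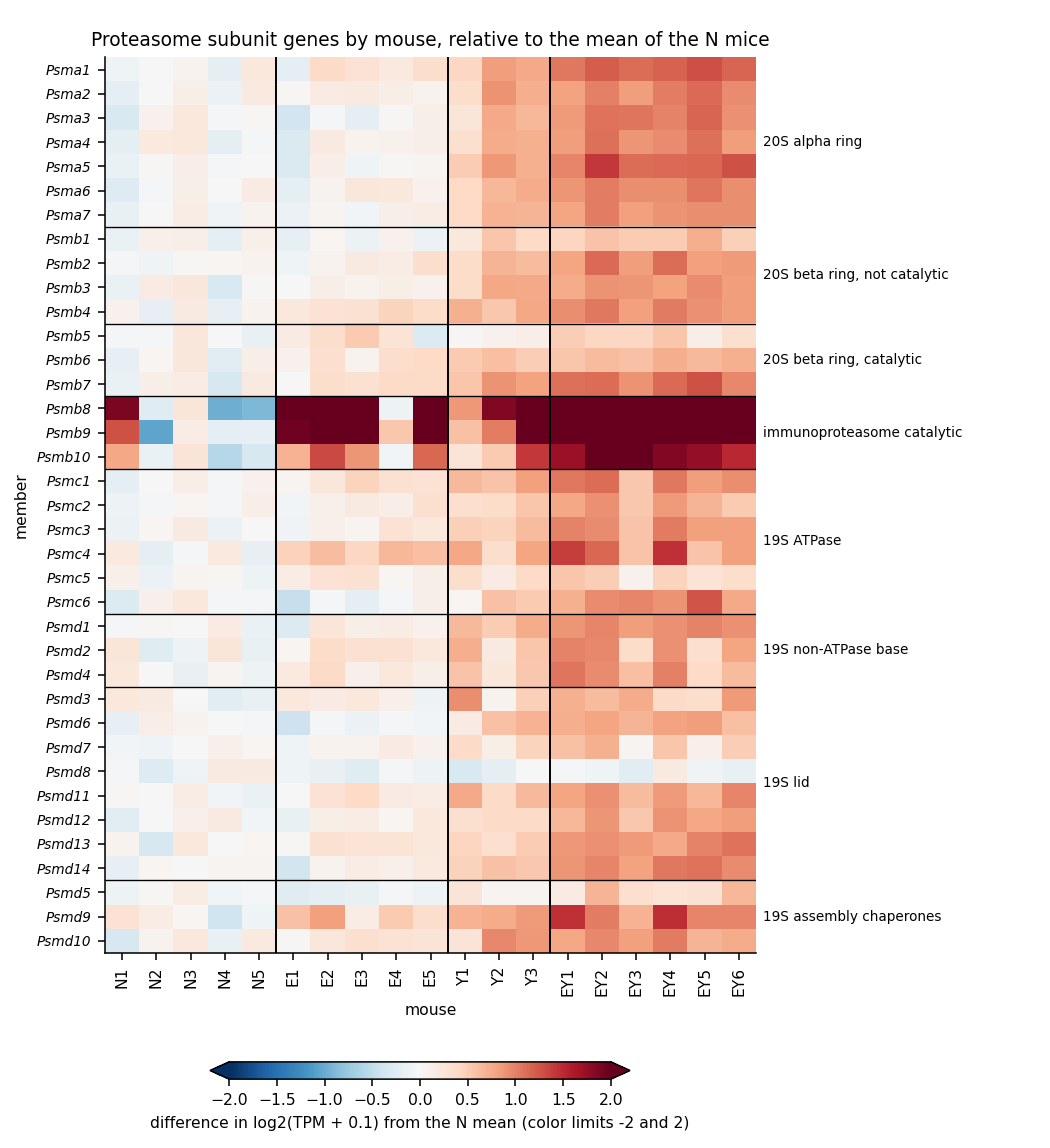
Level of each tested member in each mouse as log2 relative to the mean of the N mice. The median over the members runs from -0.10 to 0.14 in N mice, 0.01 to 0.18 in the E mice, 0.40 to 0.67 in Y and 0.81 to 0.96 in EY.

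The heat map of mice and members shows this per mouse. On the log2 scale relative to the mean of N, the median over the 37 members was 0.40, 0.57 and 0.67 in the Y mice and 0.81 to 0.96 in the EY mice. The member medians of the 4 groups separate N from Y and Y from EY, whereas E mice overlap N mice. The median over the immunoproteasome genes in each mouse, which the heat map does not draw, stands apart from this order. It was 1.27 in N1 against -0.57 to 0.24 in the other N mice. In E4 it was -0.05 against 1.94 to 3.53 in the other E mice, and in EY mice 2.30 to 3.61.

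The comparison of EY with N asks what both transgenes together do to the family. Of 37 members 35 were higher, against 23.9% of all genes, and 8 were DEGs, all higher. Of all genes 12.6% were DEGs and higher, and 1299 of 22745 were DEGs and lower. No member was lower (0 of 37 by limma and 0 by limma voom on the recovered reads), against 7.97% of all genes by limma. At an unadjusted p below 0.05 there were 36 members, all of them upward, against 11043 of 22745 genes in either direction. The 8 DEGs are Psma1, Psma3, Psma5, Psmb7, Psmb8, Psmb9, Psmb10 and Psmd9, and the 2 members that were not higher are Psmb5 and Psmd8. In 33 of 37 members each EY mouse lay above each N mouse in TPM, against 20.9% of all genes; the other 4 are Psmb5, Psmc5, Psmd7 and Psmd8. The median log2 fold change over members was 0.91 (1.88-fold), against 0.33 over all genes tested.

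That median of all genes is a shift that the scaling matters for. TPM fixes the total of each library, and median-of-ratios scaling moves the median of all genes in EY against N from 0.33 to 0.01 and the split of all genes from 5435 higher and 1813 lower to 3081 higher and 3133 lower. After it 26 members were higher, against 13.5% of all genes, 3 of them DEGs, Psmd8 was lower, and the member median was 0.54. By limma voom 32 members were higher and 6 were DEGs. Of the 22745 genes 4552 were higher by limma voom and 2303 were DEGs and higher. After quantile normalization 29 members were higher, against 3211 of 22745 genes. Values after median-of-ratios scaling are called scaled below. Because the tissue is bulk, a change in the share of a cell type and a change in RNA per cell cannot be told apart in any of these values.

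**Figure D2:**
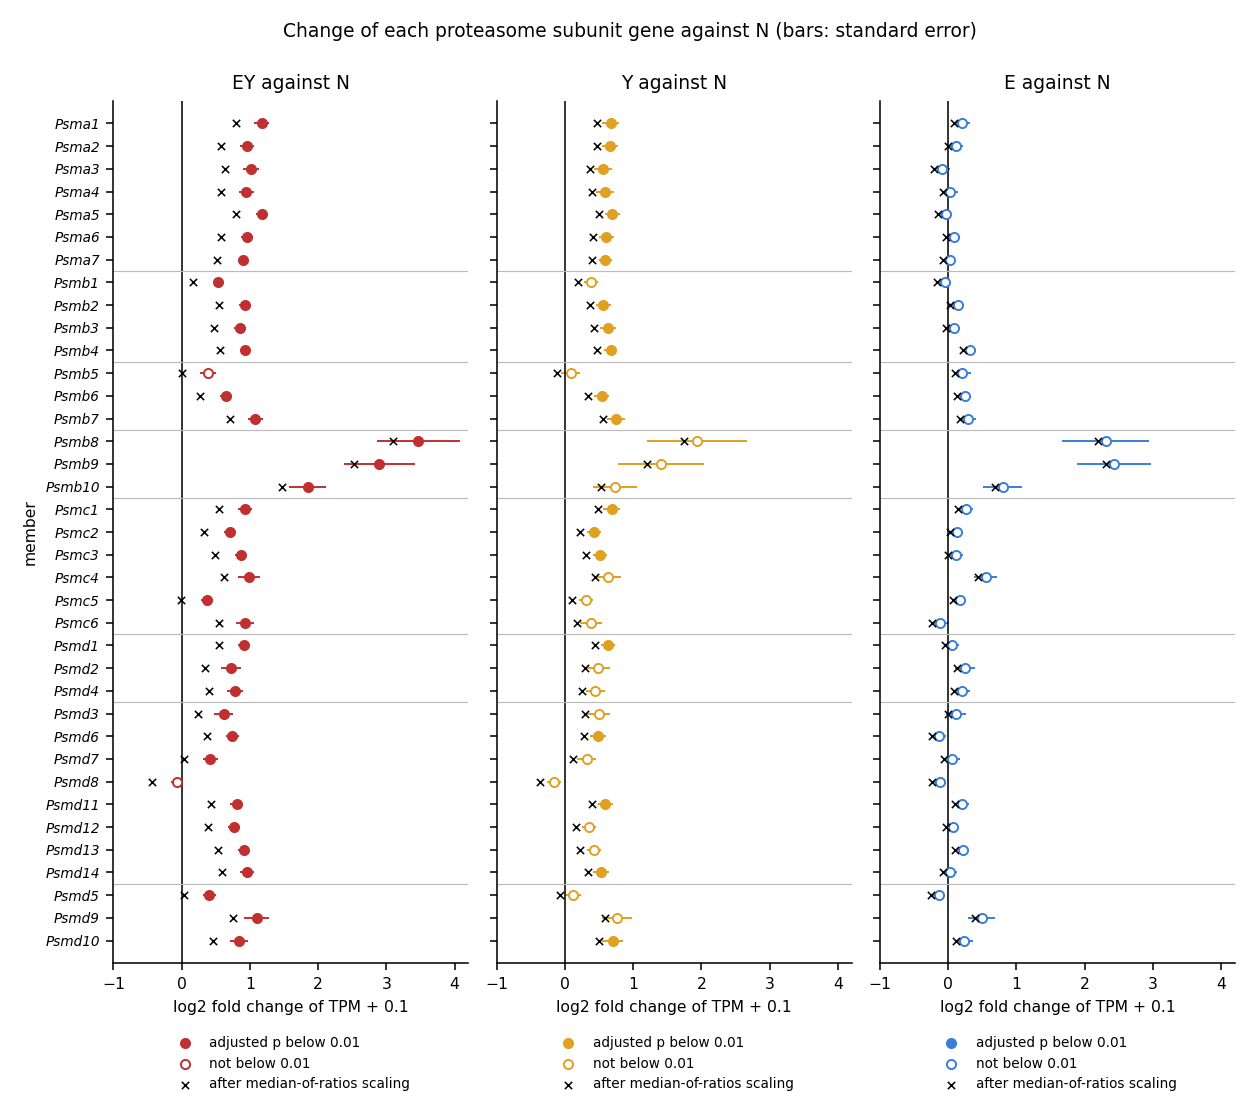
Log2 fold change against N of each member in EY, Y and E, with the standard error as a bar, filled where the adjusted p is below 0.01 and a cross for the value after median-of-ratios scaling. The median over members is 0.91 in EY, 0.56 in Y and 0.13 in E mice, and Psmc5 in EY, Psmb5 in Y and Psmd5 in Y change sign with scaling (to -0.008, -0.11 and -0.08), as do 9 members in E (to -0.08 at lowest).

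The plot of fold changes by member shows the 20S core first. The 7 alpha subunits form the outer rings and gate the barrel. All 7 were higher in EY than in N, with log2 fold changes from 0.90 to 1.18 and a median of 0.96, and all 7 were higher after scaling too (median 0.58). Psma5 had the largest fold change among them. In N1 to N5 its TPM was 15, 16.7, 18.2, 16.2 and 16.6, in E1 to E5 13.5, 18.1, 15.5, 16.8 and 17.1, in Y1 to Y3 23.5, 30.3 and 27.1, and in EY 32.5 at lowest, 36.5 in the median and 44.4 at highest. N and E overlap, all Y mice lie above both, and all EY mice lie above all Y mice. The log2 fold change of Psma5 in EY against N was 1.18 (SE 0.09, adjusted p 3.27e-08, 6 of 6 EY mice above each N mouse). After scaling it was 0.80.

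Psma7 is the most abundant alpha subunit by transcript length and had the smallest change of the 7. Its TPM was 111, 124, 138, 117 and 129.9 in N, 115, 129, 119.7, 135 and 137 in E mice, 164, 200.02 and 199 in Y, and 214, 233 and 250.3 in EY (lowest, median, highest). The order of the groups is the same as for Psma5, with no overlap between N, Y and EY. For Psma7 in EY the log2 fold change was 0.90 (SE 0.08, adjusted p 6.01e-08, 6 of 6 mice), and 0.52 after scaling.

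The 4 beta subunits without a catalytic site hold the inner rings together. All 4 were higher in EY (median log2 fold change 0.89, 0.54 to 0.93), and 3 after scaling. Psmb4 is built in last. TPM of Psmb4 was 246, 209, 263, 209 and 244 in N, 269.9, 286, 287, 318 and 301 in E mice, 380.2, 340.2 and 398 in Y, and from 413 through 441 to 485 in EY. No group overlaps its neighbour, and E lies just above N for this gene. Its log2 fold change in EY was 0.93 (SE 0.08, adjusted p 5.54e-08, 6 of 6 mice) and 0.56 scaled. Psmb1, a neighbour in the ring, had the smallest change of the 4, 0.54 (SE 0.08, adjusted p 5.29e-05, 6 of 6 mice), which scaling brought to 0.16 (adjusted p 0.155).

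The constitutive catalytic subunits are Psmb6 (caspase-like), Psmb7 (trypsin-like) and Psmb5 (chymotrypsin-like), and they did not move alike. In EY 2 of 3 were higher, with a median log2 fold change of 0.65 from 0.39 to 1.08, and 1 of 3 after scaling. Psmb7 had TPM of 9.47, 11.3, 11.6, 8.35 and 11.8 in N, 10.5, 13.4, 13.0, 13.6 and 13.7 in E mice, 15.3, 19.6 and 18.3 in Y, and 19.5, 22.5 and 25.2 in EY (lowest, median, highest). All Y and EY mice lie above all N and E mice, with Y2 just inside the EY range. Psmb7 changed in EY by a log2 fold change of 1.08 (SE 0.11, adjusted p 4.22e-07, 6 of 6 mice), 0.70 scaled.

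Psmb6 had TPM of 199, 229.6, 259, 189.6 and 242 in N, 237, 279.5, 233, 282 and 294 in E mice, 318, 338 and 313 in Y, and 327, 347 and 369 in EY. Y and EY overlap here and both lie above N. In EY its log2 fold change was 0.65 (SE 0.09, adjusted p 1.15e-05, 6 of 6 mice), and 0.27 scaled (adjusted p 0.025).

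Psmb5 moved least of the 3. Its TPM was 45.5, 45.9, 54.6, 46.8 and 42.3 in N, 52.6, 59.9, 67.2, 56.9 and 38.7 in E mice, 47.9, 49.96 and 51.5 in Y, and 51.6, 62.4 and 68.8 in EY. Y lies within N and below EY, the other groups overlap, and E5 is the lowest mouse of all 19. The log2 fold change of Psmb5 in EY was 0.39 (SE 0.11, adjusted p 0.0112, 5 of 6 mice above each N mouse), not called, and scaling leaves 0.01. It was called without N3 (adjusted p 0.00726), E3 (0.00745), E5 (0.0015) or EY5 (0.00596), and with only the groups compared in the fit (0.0053).

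**Figure D3:**
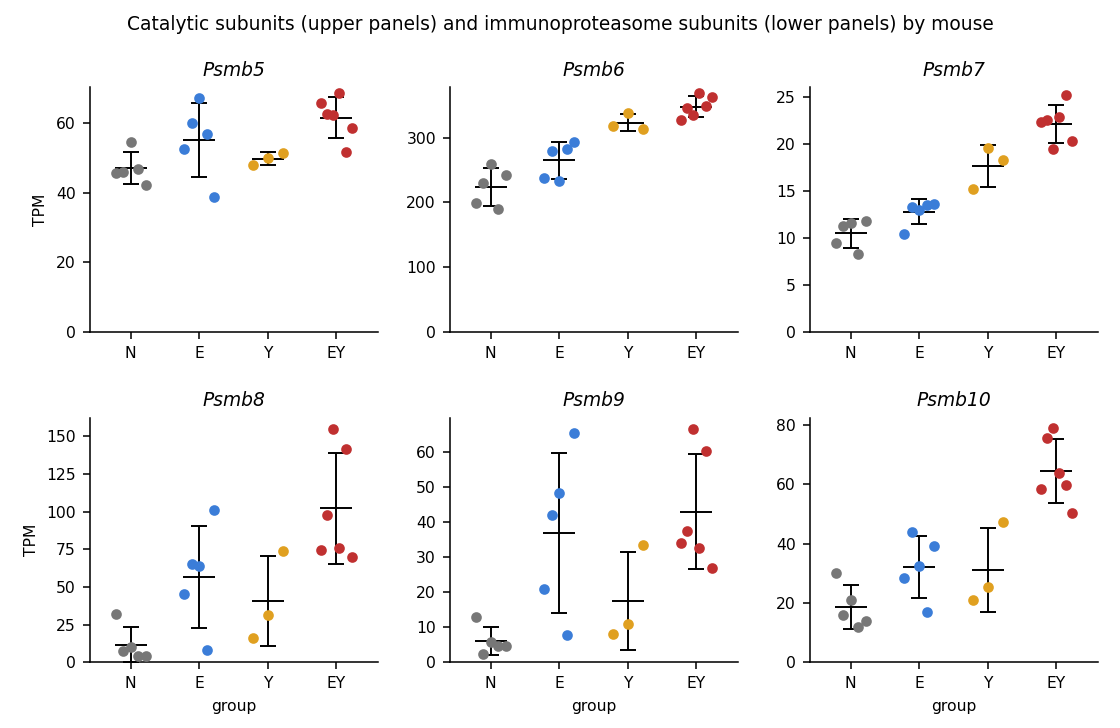
TPM of the constitutive catalytic genes (upper) and their immunoproteasome counterparts (lower) in each mouse, by group. Psmb8 is 4.35 to 32.4 in N and 70.2 to 155 in EY, whereas Psmb5 is 42.3 to 54.6 and 51.6 to 68.8.

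The plots of single mice set these 3 genes over the immunoproteasome subunits that take their places: Psmb8 that of Psmb5, Psmb9 that of Psmb6 and Psmb10 that of Psmb7. All 3 were DEGs in EY against N, with the largest changes of any member (median log2 fold change 2.90, from 1.85 to 3.47), and all 3 stayed higher after scaling (median 2.52). Psmb8 TPM was 32.4, 7.38, 10.3, 4.35 and 4.61 in N, 45.3, 65.1, 64.3, 8.06 and 101 in E mice, 16, 31.8 and 73.8 in Y, and 70.2, 86.8 and 155 in EY. N1 stands above the other N mice, E4 lies within N, and the Y mice are spread from within N to within EY. Psmb8 thus had a log2 fold change in EY of 3.47 (SE 0.61, adjusted p 0.000169, 6 of 6 mice), and 3.09 scaled.

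Psmb9 TPM was 13.1, 2.54, 5.98, 4.68 and 4.80 in N, 20.95, 42.0, 48.4, 7.87 and 65.4 in E mice, 8.11, 10.99 and 33.6 in Y, and 26.9, 35.8 and 66.7 in EY. The same mice stand out, N1 upward and E4 downward, and E without E4 covers nearly the range of EY. Psmb9 had in EY a log2 fold change of 2.90 (SE 0.52, adjusted p 0.000207, 6 of 6 mice), 2.52 scaled. Psmb10 TPM was 30.3, 16, 21, 11.8 and 14.1 in N, 28.5, 44.0, 32.6, 17 and 39.3 in E mice, 21, 25.3 and 47.2 in Y, and 50.5, 61.8 and 79.0 in EY. Here all EY mice lie above all other mice, and the change is smaller: log2 fold change 1.85 (SE 0.27, adjusted p 2.59e-05, 6 of 6 mice), 1.47 scaled.

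**Figure D4:**
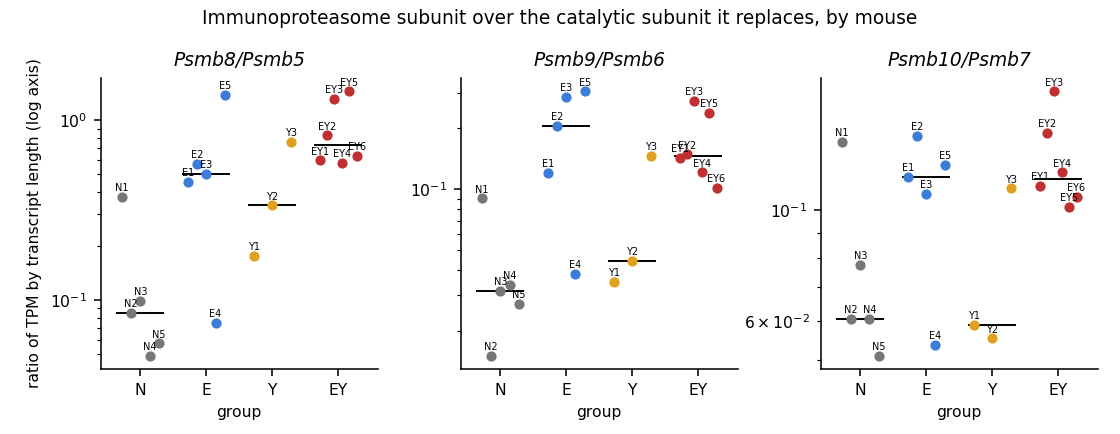
Ratio of each immunoproteasome gene to its constitutive counterpart in each mouse, in TPM by transcript length on a log axis. The median of Psmb8 over Psmb5 is 0.0848 in N, 0.505 in E mice, 0.336 in Y and 0.729 in EY.

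The ratios of the paired subunits compare levels between genes, so they use TPM by transcript length. The median of Psmb8 over Psmb5 was 0.0848 in N (0.0491 to 0.375), 0.505 in E mice (0.0748 to 1.38), 0.336 in Y (0.177 to 0.757) and 0.729 in EY (0.583 to 1.45), 5.95, 3.97 and 8.59 times the N median. For Psmb9 over Psmb6 it was 0.0316 in N (0.0151 to 0.0903), 0.206 in E mice (0.0382 to 0.305), 0.0445 in Y (0.0349 to 0.147) and 0.146 in EY (0.102 to 0.272). Psmb10 over Psmb7 moved least, from 0.0605 in N (0.0510 to 0.137) to 0.116 in E mice, 0.0588 in Y and 0.115 in EY (0.101 to 0.173). In EY 6, 6 and 2 of 6 mice lay above each N mouse for these 3 ratios, in E 4, 4 and 1 of 5, and in Y 1, 1 and 0 of 3. The Y medians rest on few mice: the fold of N for Psmb8 over Psmb5 is 6.44 without Y1, and for Psmb9 over Psmb6 it goes from 1.41 to 3.03 without Y1 or 2.88 without Y2. As a share of the summed catalytic RNA the 3 immunoproteasome genes made up 4.34% in N (3.83 to 13.1, N1 highest), 19.1% in E mice (4.67 to 25.4, E4 lowest), 7.21% in Y (5.59 to 16.4) and 16.8% in EY (13.8 to 26.2). The share in Y is also unsteady, with a median of 11.8% without Y1 and 11.02% without Y2. No test was run on these ratios and shares.

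Promoter sequence gives another description of the members. Of the 38 members 31 matched an entry of the RefSeq promoter table (build GRCm38.p6), which holds 250 bases before to 50 after the start for 32851 promoters. Psma8, Psmb1, Psmb2, Psmb7, Psmc3, Psmd3 and Psmd7 have no entry. Each motif was searched on both strands. The share of members counts genes with the motif in any of their promoters, while the share beside it counts promoters. TGACNNNGC, a form of the element bound by NFE2L1, was in 5 members (16.1%, against 12.4% of all promoters): Psmb5, Psmb6, Psmc6, Psmd9 and Psmd12. GAAANNGAA, a form of the interferon element, was in 5 (16.1% against 8.56%): Psmb3, Psmb4, Psmc2, Psmd4 and Psmd9. CCAAT was in 12 (38.7% against 37.4%), CATTCC, a TEAD element, in 3 (9.68% against 14.7%), TTTCCCGC, a form of the E2F element, in 2 (6.45% against 1.07%), and TTTGGCGC, another form of it, in 1 (3.23% against 0.514%). Over the 33 promoters of the matched members the shares were 15.2%, 15.2%, 36.4%, 9.09%, 6.06% and 3.03%, in the order above. A match is a description of letters, and its absence says only that these letters are not in this window.

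The 3 immunoproteasome promoters are shown, with those of Psma5 and Psma1. Among the other members with a promoter entry, Psma5 and Psma1 had the largest log2 fold changes in EY against N. Their choice thus rests on the values. Capitals mark matches to the motifs above on either strand. They lie at chr17:34197945-34198244 (+) for Psmb8, chr17:34187281-34187580 (-) for Psmb9, chr8:105938343-105938642 (-) for Psmb10, chr3:108256676-108256975 (+) for Psma5 and chr7:114276067-114276366 (-) for Psma1 on GRCm38.p6, each read 5′ to 3′ on its own strand.
Psmb8: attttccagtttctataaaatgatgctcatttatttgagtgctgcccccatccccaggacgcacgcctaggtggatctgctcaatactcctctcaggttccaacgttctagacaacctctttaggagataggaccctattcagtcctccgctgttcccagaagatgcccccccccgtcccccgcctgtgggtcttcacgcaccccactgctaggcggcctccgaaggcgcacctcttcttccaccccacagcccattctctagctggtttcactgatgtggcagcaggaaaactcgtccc
Psmb9: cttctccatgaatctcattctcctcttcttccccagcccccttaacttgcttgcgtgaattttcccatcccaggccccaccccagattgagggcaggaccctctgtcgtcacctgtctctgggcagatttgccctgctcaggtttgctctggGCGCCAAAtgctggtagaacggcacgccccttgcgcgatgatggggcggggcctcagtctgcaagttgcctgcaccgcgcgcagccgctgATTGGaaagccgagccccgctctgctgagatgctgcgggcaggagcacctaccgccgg
Psmb10: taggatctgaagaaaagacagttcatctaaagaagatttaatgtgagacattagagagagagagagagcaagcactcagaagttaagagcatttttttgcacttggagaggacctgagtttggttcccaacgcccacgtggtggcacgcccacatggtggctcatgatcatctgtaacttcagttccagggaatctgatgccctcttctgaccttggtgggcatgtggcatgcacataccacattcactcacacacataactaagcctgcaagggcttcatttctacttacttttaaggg
Psma5: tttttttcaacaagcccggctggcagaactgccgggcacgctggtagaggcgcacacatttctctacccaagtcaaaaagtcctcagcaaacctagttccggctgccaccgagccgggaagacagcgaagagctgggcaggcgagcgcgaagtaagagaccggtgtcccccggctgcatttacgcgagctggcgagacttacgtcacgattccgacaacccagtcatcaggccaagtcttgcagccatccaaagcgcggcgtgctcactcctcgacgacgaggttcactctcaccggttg
Psma1: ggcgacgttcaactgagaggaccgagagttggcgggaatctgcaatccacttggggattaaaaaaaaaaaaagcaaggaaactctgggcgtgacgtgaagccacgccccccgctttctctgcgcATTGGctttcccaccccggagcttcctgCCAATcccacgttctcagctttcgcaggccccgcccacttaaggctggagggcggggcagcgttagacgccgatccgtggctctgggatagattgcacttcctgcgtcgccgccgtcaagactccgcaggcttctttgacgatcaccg
Psmb9 has GCGCCAAA, the opposite strand of TTTGGCGC, and ATTGG, the opposite strand of CCAAT. Psma1 has CCAAT once on each strand, and Psmb8, Psmb10 and Psma5 have no match. The windows of Psmb9 and its neighbour Tap1, a class I peptide transporter gene, share 275 bases head to head. Exons of 9 members overlap another gene of the table, all on the opposite strand (Psmb8 with Gm20496, Psmb9 with Tap1 and Psmb7 with Nek6 among them), and as the strand of counting is not stated, reads of such pairs cannot be told apart there.

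The 6 ATPases of the 19S cap unfold the substrate. In EY all 6 were higher (median log2 fold change 0.89, 0.37 to 0.99), and 4 after scaling. Psmc4 lies at the top of this range. Its TPM was 55.7, 42.5, 47.9, 55.5 and 43.1 in N, 67.0, 74.8, 64.5, 76.9 and 73.9 in E mice, 83.0, 62.2 and 83.6 in Y, and 72.03, 96.8 and 134 in EY. No mouse of the other groups falls within N, and E, Y and EY overlap each other. Psmc4 had in EY a log2 fold change of 0.99 (SE 0.16, adjusted p 6.70e-05, 6 of 6 mice), 0.61 scaled. Psmc5 lies at the bottom, with TPM of 125, 108, 122, 120.5 and 109 in N, 129, 143, 144, 119 and 126 in E mice, 148, 131 and 153 in Y, and 124, 154 and 171 in EY. EY overlaps N through 1 mouse, and its log2 fold change in EY of 0.37 (SE 0.08, adjusted p 0.00188, 5 of 6 mice above each N mouse) turns to -0.008 with scaling (adjusted p 0.963) and is not called by limma voom (0.075).

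The base also holds Psmd1 and Psmd2, large scaffolds that dock ubiquitin receptors, and Psmd4, itself a receptor. All 3 were higher in EY (median log2 fold change 0.78, 0.72 to 0.92), 1 of them after scaling. Psmd1 TPM was 10.3, 10.7, 10.5, 11.8 and 9.62 in N, 8.70, 12.6, 11.4, 11.7 and 11.2 in E mice, 16.5, 15.1 and 17.8 in Y, and 18.9, 20.01 and 21.1 in EY. N, Y and EY do not overlap, and E1 is the lowest mouse of all. Psmd1 had in EY a log2 fold change of 0.92 (SE 0.09, adjusted p 2.14e-07, 6 of 6 mice), 0.54 scaled. For Psmd2 it was 0.72 (SE 0.14, adjusted p 0.000501, 6 of 6 mice), and 0.35 scaled (adjusted p 0.0929).

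The 8 lid subunits position the deubiquitinase Psmd14 over the pore. In EY 7 of 8 were higher (median log2 fold change 0.75, -0.06 to 0.96), and after scaling 5 were higher and 1 lower. Psmd14 TPM was 5.27, 6.09, 5.93, 6.10 and 6.14 in N, 4.54, 6.22, 6.57, 6.36 and 6.79 in E mice, 8.17, 8.90 and 8.63 in Y, and 10.4, 11.6 and 12.6 in EY. Y lies above N and E, and EY above Y, without overlap. Psmd14 thus had a log2 fold change in EY of 0.96 (SE 0.10, adjusted p 5.14e-07, 6 of 6 mice), 0.59 scaled. Psmd8, another lid subunit, is the member that did not follow: its TPM was 202, 173, 194, 233 and 232 in N, 194, 186, 174, 200.4 and 192 in E mice, 166, 181 and 206 in Y, and 177, 195 and 231 in EY. All 4 groups overlap, and the log2 fold change of Psmd8 in EY was -0.06 (SE 0.09, adjusted p 0.617), which scaling takes to -0.44 (adjusted p 0.00895).

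The 3 chaperones that help build the 19S base and leave it again were all higher in EY (median log2 fold change 0.84, 0.40 to 1.10), 2 of them after scaling. Psmd9 TPM was 1.22, 1.10, 1.01, 0.719 and 0.914 in N, 1.52, 1.81, 1.09, 1.45 and 1.28 in E mice, 1.64, 1.6997 and 1.84 in Y, and 1.64, 2.05 and 2.91 in EY. All Y and EY mice lie above N, while Y and EY overlap. Psmd9 had in EY a log2 fold change of 1.10 (SE 0.18, adjusted p 0.000103, 6 of 6 mice), 0.75 scaled. Psmd5 had 0.40 (SE 0.10, adjusted p 0.00242, 6 of 6 mice), and 0.03 scaled (adjusted p 0.847), and was not called by limma voom (0.0674).

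The comparison of Y with N asks what activated YAP1 does alone. Of 37 members 20 were higher, against 7.17% of all genes, and 34 had an unadjusted p below 0.05, against 6562 of 22745 genes. None was a DEG (0 by limma and 0 by limma voom). Of all genes 3.47% were DEGs and higher by limma, and 252 of 22745 were DEGs and lower. In 28 members each Y mouse lay above each N mouse, against 15.5% of all genes. The median log2 fold change over members was 0.56 (1.48-fold), against 0.13 over all genes. With 3 mice the count of members higher is unsteady: it is 7 without Y3, 11 without Y2 and 2 with only the groups compared. By limma voom it is 11, against 1361 of 22745 genes, and after quantile normalization 1, against 845 of 22745. After median-of-ratios scaling it is 4 (3.9% of all genes), where the member median is 0.36 and that of all genes -0.03.

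By role, 7 of 7 alpha subunits were higher in Y (median 0.60), 3 of 4 beta subunits without a catalytic site (0.60), 2 of 3 constitutive catalytic subunits (0.54), 3 of 6 ATPases (0.47), 1 of 3 base subunits (0.49), 3 of 8 lid subunits (0.45) and 1 of 3 chaperones (0.70). These counts were not tested against each other. The log2 fold change was 0.69 for Psma5 (SE 0.11, adjusted p 0.000487, 3 of 3 mice), 0.59 for Psma7 (SE 0.09, adjusted p 0.000306, 3 of 3; 0.39 scaled, adjusted p 0.013) and 0.67 for Psmb4 (SE 0.09, adjusted p 0.000125, 3 of 3). Psmb7 had 0.75 (SE 0.13, adjusted p 0.000788, 3 of 3 mice) and Psmd1 0.63 (SE 0.10, adjusted p 0.000518, 3 of 3; 0.44 scaled, adjusted p 0.0132). Psma5, Psmb3, Psmb4 and Psmb7 are the 4 members higher after scaling, but after quantile normalization all but Psmb4 are lost (adjusted p 0.0194 for Psma5 and 0.0118 for Psmb7), and with only the groups compared in the fit all but Psma5 (0.011 for Psmb4 and 0.0204 for Psmb7).

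Other calls in Y depend on single mice. Psmb6 had a log2 fold change of 0.54 (SE 0.11, adjusted p 0.00205, 3 of 3 mice; 0.34 scaled, adjusted p 0.0465), lost without Y2 (adjusted p 0.0129) and by limma voom (0.0114). Psmd14 had 0.53 (SE 0.12, adjusted p 0.0052, 3 of 3 mice; 0.33 scaled, adjusted p 0.0991), lost without N1 (adjusted p 0.0125), Y1 (0.013), Y2 (0.0253) or Y3 (0.0271), and by limma voom (0.014). Psmb1 had 0.39 (adjusted p 0.0145) and was called without Y1 (adjusted p 0.00948). Not called were Psmc4 at 0.64 (adjusted p 0.0302), Psmc5 at 0.30 (adjusted p 0.0515), Psmd2 at 0.49 (adjusted p 0.0625), Psmd9 at 0.76 (adjusted p 0.0251), Psmd8 at -0.16 (adjusted p 0.348), Psmb5 at 0.09 (adjusted p 0.737, -0.11 scaled) and Psmd5 at 0.12 (adjusted p 0.542, -0.08 scaled). The immunoproteasome genes had larger values (median 1.41) with a wide spread and no call (0 of 3 by limma and by limma voom, with 3 at an unadjusted p below 0.05): 1.93 for Psmb8 (SE 0.74, adjusted p 0.0846), 1.41 for Psmb9 (SE 0.63, adjusted p 0.146) and 0.73 for Psmb10 (SE 0.33, adjusted p 0.146). Y3 is the highest Y mouse for all 3 genes, with Psmb9 at 33.6 TPM against 8.11 and 10.99, so these values lean on it.

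The comparison of E with N asks what E6-E7 does alone. No member was higher (0 of 37 by limma, 0 by limma voom), against 1.71% of all genes, and none was a DEG. Of all genes 1.16% were DEGs and higher, and 10 of 22745 were DEGs and lower. At an unadjusted p below 0.05 there were 10 members by limma and 9 by limma voom, against 3358 and 3390 of 22745 genes. The median log2 fold change over members was 0.13 (1.10-fold), against 0.07 over all genes, and 0.02 against -0.02 after scaling, with 0 members higher (1.35% of all genes). Only Psmb4 and Psmc4 had each E mouse above each N mouse in TPM (2 of 37, against 3.93% of all genes).

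By role the E medians of the log2 fold change were 0.03 for alpha subunits (-0.08 scaled), 0.11 for beta subunits without a catalytic site (-0.004 scaled), 0.25 for constitutive catalytic subunits, 0.16 for ATPases, 0.20 for base, 0.07 for lid (-0.05 scaled) and 0.23 for chaperones, with 0, 1, 2, 2, 0, 1 and 1 members at an unadjusted p below 0.05. The immunoproteasome genes had a median of 2.31 and no call in TPM as deposited (3 of 3 at an unadjusted p below 0.05). For Psmb8 it was 2.31 (SE 0.64, adjusted p 0.0551, 4 of 5 mice above each N mouse), and without E4 2.91 and called (adjusted p 0.00458). For Psmb9 it was 2.43 (SE 0.54, adjusted p 0.0163, 4 of 5 mice), called without N1 (2.75, adjusted p 0.00803) or E4 (2.90, adjusted p 0.00204), and with all mice in TPM by transcript length (2.42, adjusted p 0.00829) and in reads over the total (2.40, adjusted p 0.00306). Psmb10 had 0.80 (SE 0.28, adjusted p 0.155, 3 of 5 mice). Thus the count of members higher in E is 1 without N1 and 2 without E4. Of the constitutive catalytic genes, Psmb5 had 0.21 (adjusted p 0.468), Psmb6 0.25 (adjusted p 0.178) and Psmb7 0.29 (adjusted p 0.218).

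Adding activated YAP1 to E6-E7 is the comparison of EY with E. Of 37 members 28 were higher, against 18.1% of all genes, and 33 had an unadjusted p below 0.05, against 9909 of 22745 genes. The median log2 fold change over members was 0.69 (1.61-fold), against 0.26 over all genes. Scaling leaves 21 higher, against 11.2% of all genes; of all genes 4117 were higher, and after scaling 2557 were higher and 2605 lower. The 4 DEGs, all higher, are Psma3, Psma5, Psmb10 and Psmc6 (2 without E1, and 0 after scaling). Of all genes 7.82% were DEGs and higher, and 1135 of 22745 were DEGs and lower. By role the higher members are 7 of 7 alpha subunits, 4 of 4 and 2 of 3 beta subunits, 1 of 3 immunoproteasome genes, 4 of 6 ATPases, 2 of 3 base, 6 of 8 lid and 2 of 3 chaperones.

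In EY against E Psma5 had a log2 fold change of 1.21 (SE 0.09, adjusted p 5.86e-08, 6 of 6 EY mice above each E mouse), Psma3 1.10 (SE 0.11, adjusted p 1.07e-06, 6 of 6) and Psmc6 1.04 (SE 0.13, adjusted p 6.62e-06, 6 of 6). The last 2 are named after their values were seen. The immunoproteasome genes differ from these. Psmb8 had 1.16 (SE 0.61, adjusted p 0.157) and Psmb9 0.47 (SE 0.52, adjusted p 0.529, -0.01 without E4). E4 is also low for Psmb8 (8.06 TPM, others 45.3 to 101), so leaving it out lowers the Psmb8 value too. Psmb10 had 1.05 (SE 0.27, adjusted p 0.00528, 6 of 6 mice), 0.79 scaled (adjusted p 0.0276). Its call is lost without E1 (adjusted p 0.014), E3 (0.0103), E4 (0.0172), EY2 (0.0129), EY3 (0.0126) or EY4 (0.0102).

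Adding E6-E7 to activated YAP1 is the comparison of EY with Y, which has only 3 mice on 1 side. Of 37 members 1 was higher, against 2.34% of all genes, and 0 were higher by limma voom, against 539 of 22745 genes. At an unadjusted p below 0.05 there were 24 members, against 5425 of 22745 genes. The median log2 fold change over members was 0.31 (1.24-fold), against 0.18 over all genes. The member called is Psmd13, a lid subunit named after its values were seen. Psmd13 TPM was 31.1, 23.6, 33.9, 29.4 and 30.2 in N, 30.1, 36.2, 35.8, 35.8 and 33.9 in E mice, 39.7, 37.2 and 41.9 in Y, and 49.98, 54.6 and 62.9 in EY. EY lies above Y, and Y above N and E, without overlap. The log2 fold change of Psmd13 in EY against Y was 0.49 (SE 0.10, adjusted p 0.00659, 6 of 6 mice), 0.31 scaled (adjusted p 0.127). The call is lost without Y1 (adjusted p 0.0328), Y2 (0.0394), Y3 (0.0175), EY1 (0.0113), EY2 (0.0136), EY5 (0.012) or EY6 (0.0127), and the count of members is 4 without E1 and 2 without EY3. Psmb8 had 1.53 (SE 0.71, adjusted p 0.2), Psmb9 1.49 (SE 0.61, adjusted p 0.142) and Psmb10 1.12 (SE 0.32, adjusted p 0.0345).

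The interaction asks whether the change in EY departs from E and Y changes added up on the log2 scale. No member passed (0 of 37 by limma and 0 by limma voom), against 0.0176% of all genes higher and 0.18% lower by limma. At an unadjusted p below 0.05 there were 8 members by limma and 6 by limma voom, against 3072 and 3104 of 22745 genes. The median over members was 0.18, against 0.08 over all genes. No member is therefore said here to respond to the transgenes together in another way than added up.

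**Figure D5:**
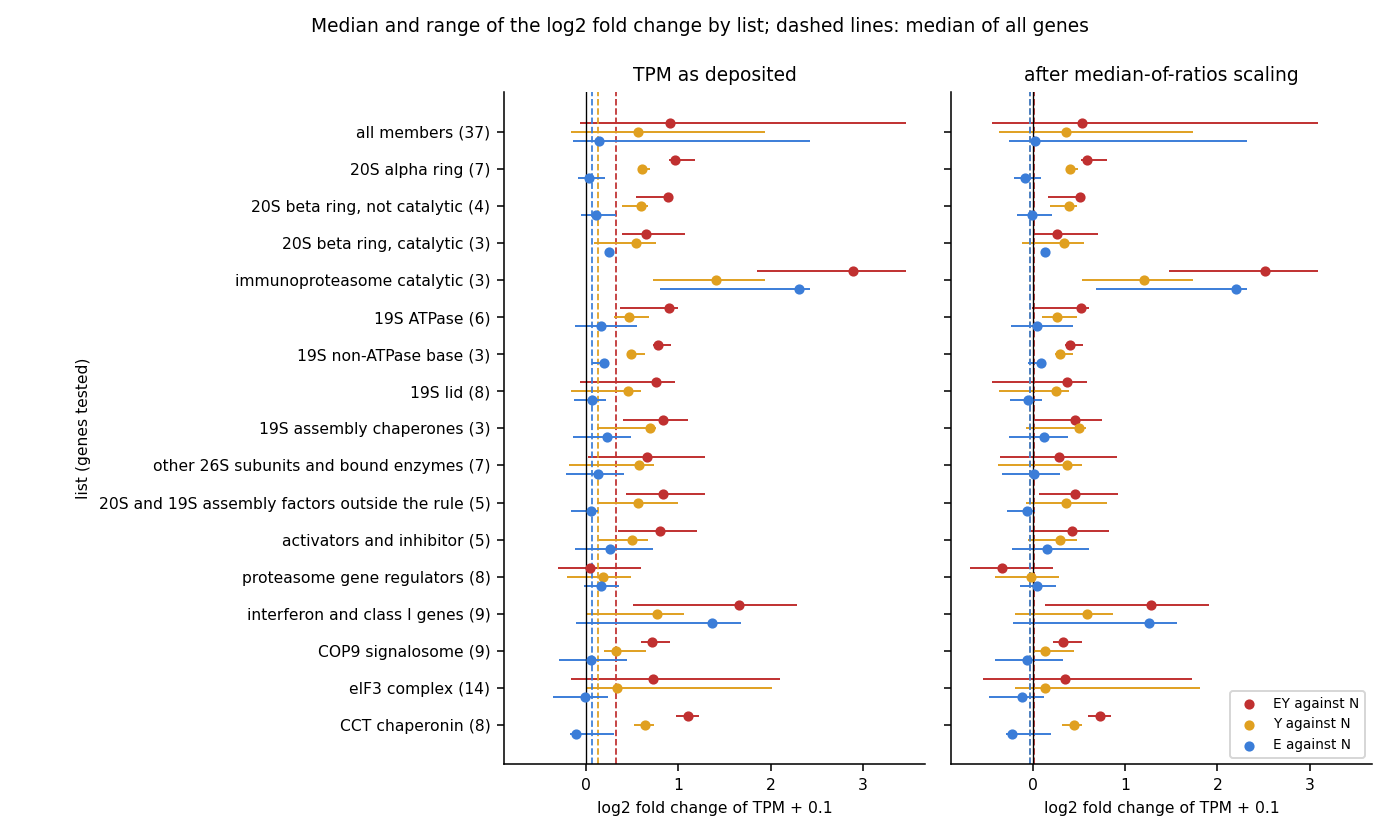
Median and range of the log2 fold change against N for each list of genes, with a dashed line at the median of all genes tested. In EY the medians run from 0.04 for the regulators of proteasome genes to 2.90 for the immunoproteasome genes, and the regulators turn to -0.33 after scaling (-0.02 in Y). In E the medians of alpha ring, noncatalytic beta ring, lid, assembly factors and COP9 also turn negative (-0.08 at lowest).

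The plot of lists sets the members beside genes of the same pathway outside the symbol rule. Of 7 other 26S subunits and bound enzymes 6 were higher in EY, 3 of them DEGs (median log2 fold change 0.66), and after scaling 3 were higher and 1 lower. Txnl1, a thioredoxin bound to the cap, had 1.29 (SE 0.09, adjusted p 1.24e-08, 6 of 6 mice), 0.91 scaled. Ecpas, a scaffold that ties proteasomes to motors and membranes, had 0.02 (SE 0.10, adjusted p 0.894), but -0.35 after scaling (adjusted p 0.00591), and its sign is also negative without N1, N5, EY2 or EY6 (down to -0.03). Of 5 assembly factors 4 were higher in EY (median 0.83), 3 after scaling; Paaf1 has no entry in the table. Psmg4, a chaperone of the alpha ring, had 1.29 (SE 0.16, adjusted p 3.26e-06, 6 of 6 mice), and its partner Psmg3 0.44 (SE 0.34, adjusted p 0.339).

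Of 5 activators and inhibitors that cap the core 3 were higher in EY (median 0.80), 2 after scaling. Psme1, which forms the interferon-induced cap with Psme2, had TPM of 76.1, 49.9, 45.8, 39.1 and 43.5 in N, 75.9, 103, 77.4, 50.4 and 117 in E mice, 71.98, 72.2 and 94.7 in Y, and 90.2, 115 and 142 in EY. N1 is again high among N and E4 low among E, as with the immunoproteasome genes. Psme1 had in EY a log2 fold change of 1.20 (SE 0.21, adjusted p 0.000128, 6 of 6 mice), Psme2 0.80 (SE 0.18, adjusted p 0.00162, 6 of 6; 0.43 scaled, adjusted p 0.0919) and Psme3, a nuclear cap, 0.89 (SE 0.10, adjusted p 2.24e-06, 6 of 6). Psme4, a cap known from sperm, had 0.34 (SE 0.12, adjusted p 0.028), -0.03 scaled.

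Regulators of the proteasome genes were listed too. Nfe2l1 encodes the factor that raises proteasome genes when degradation is blocked, and Ddi2, Ngly1, Vcp and Syvn1 take part in making it active. Of 8 regulators 2, Mafk and Vcp, were higher in EY (median 0.04), near the 23.9% of all genes, while after scaling 0 were higher and 4 lower (median -0.33). By limma voom 0 were higher and 1 lower. Nfe2l1 TPM was 54.8, 59.2, 53.9, 46.2 and 49.3 in N, 56.0, 53.9, 55.9, 50.1 and 44.4 in E mice, 74.7, 61.1 and 62.9 in Y, and 49.0, 53.4 and 62.8 in EY. EY overlaps N, and Y lies above N. Nfe2l1 had in EY a log2 fold change of 0.07 (SE 0.09, adjusted p 0.58), but -0.31 scaled (adjusted p 0.00797). Nfe2l2, a related factor, had TPM of 82.9, 70.6, 72.2, 85.7 and 61.0 in N, 84.1, 95.4, 88.6, 80.4 and 103 in E mice, 80.4, 54.2 and 82.5 in Y, and 41.6, 58.8 and 82.2 in EY. The EY median lies below the lowest N mouse, with a log2 fold change of -0.31 (SE 0.16, adjusted p 0.13), -0.68 scaled (adjusted p 0.00219). Mafk, a partner of both, had 0.60 (SE 0.15, adjusted p 0.00371, 6 of 6 mice; 0.22 scaled, adjusted p 0.191), lost without N1 (adjusted p 0.0128) or N4 (0.0107) and by limma voom (0.018).

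The interferon and class I list holds genes induced together with the immunoproteasome, from Irf1 and Nlrc5, which act on transcription, to the peptide transporter and class I chains. In EY 7 of 9 were higher, 6 of them DEGs (median 1.65), and 2 after scaling (median 1.28). B2m, the class I light chain, had TPM of 447, 161, 149, 130.3 and 146 in N, 290.3, 893, 871, 117 and 1201 in E mice, 237, 359 and 658 in Y, and 503, 831 and 1839 in EY. Tap1 had 25.3, 11.1, 11.2, 7.63 and 9.52 in N, 34.0, 43.7, 49.0, 16.2 and 68.0 in E mice, 16.5, 17.5 and 42.1 in Y, and 30.9, 43.0 and 77.4 in EY. The mice that are high or low for Psmb8 and Psmb9 are so here too: N1 high in N, E4 low in E mice, and Y3 high in Y.

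The log2 fold change in EY was 2.28 for B2m (SE 0.55, adjusted p 0.0025, 6 of 6 mice; 1.91 scaled, adjusted p 0.0103), 1.98 for Tap1 (SE 0.38, adjusted p 0.000351, 6 of 6; 1.60 scaled) and 1.7 for Irf1 (SE 0.44, adjusted p 0.00458, 4 of 6; 1.33 scaled, adjusted p 0.0197). Irf1 is lost without N3 (adjusted p 0.0108), N4 (0.0137), N5 (0.0113), EY2 (0.0112) or EY3 (0.0103), and with only the groups compared (0.012). Not called in EY were Nlrc5 at 1.62 (adjusted p 0.0354) and Tapbp at 0.50 (adjusted p 0.0598). Without N1 Tapbp was called (adjusted p 0.0098).

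In E 0 of 9 were higher by limma and 0 by limma voom, while 8 of 9 had an unadjusted p below 0.05 and the median was 1.37. Tap1 in E was 1.68 (SE 0.39, adjusted p 0.0214), called without N1 (adjusted p 0.00664) or E4 (0.00464) and with all mice in reads over the total (0.00459), and Irf1 was 1.08 (adjusted p 0.271), Nlrc5 1.5 (adjusted p 0.247) and B2m 1.46 (adjusted p 0.216). In Y 0 of 9 were higher by limma, 0 by limma voom and 0 at an unadjusted p below 0.05: Irf1 had 0.97 (adjusted p 0.248), Nlrc5 0.77 (adjusted p 0.525), Tap1 0.95 (adjusted p 0.173) and B2m 1.06 (adjusted p 0.313).

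For the other pathway lists, Y had 4 of 7 other 26S genes higher, 2 of 5 assembly factors, 1 of 5 activators and 0 of 8 regulators, and E had 0 in each of them (limma voom gave 2, 1, 1 and 0 in Y and 0 in each in E). At an unadjusted p below 0.05 Y had 2 regulators, and E had 3, 0, 2 and 0 genes of these 4 lists. Other large complexes give a scale for the members. The COP9 signalosome, built on the plan of the lid, had 9 of 9 genes higher in EY (median 0.71, 3 higher after scaling), 2 of 9 in Y and 1 of 9, Cops6, in E (0 after scaling). Cops6 had the largest change of the 9 in EY, 0.91 (SE 0.07, adjusted p 2.51e-08, 6 of 6 mice), and Cops4 the smallest, 0.59 (SE 0.12, adjusted p 0.000747, 6 of 6; 0.22 scaled, adjusted p 0.158). The translation factor eIF3, also of that plan, had 11 of 14 in EY (median 0.73, 4 higher and 1 lower after scaling), 1 of 14 in Y and 0 in E (4 at an unadjusted p below 0.05, 0 by limma voom). Its largest change in EY was that of Eif3j2, 2.10 (SE 0.77, adjusted p 0.0361, 6 of 6 mice above each N mouse), not called. N5 had 13 reads of Eif3j2, against 127 to 182 in the other N mice, and so lowers the N mean. The smallest eIF3 change was that of Eif3f, -0.16 (SE 0.13, adjusted p 0.36, 4 of 6 mice below each N mouse), which is lower after scaling (-0.54, adjusted p 0.00164). The CCT chaperonin, a folding chamber, had 8 of 8 in EY, 7 of them DEGs (median 1.11, 8 higher after scaling), 7 of 8 in Y and 0 in E (1 at an unadjusted p below 0.05, 0 by limma voom). Cct4 had 1.23 (SE 0.10, adjusted p 4.76e-08, 6 of 6 mice) and Cct2 0.97 (SE 0.13, adjusted p 1.49e-05, 6 of 6). Of all genes, 23.9% were higher in EY, 7.17% in Y mice and 1.71% in E mice. In EY most subunits of each of the 3 complexes are higher in TPM as deposited, but after scaling only those of CCT, and no test was made of a difference between them.

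Markers check the tissue and show what else differs between the mice, and the gene said to lead a list has the highest TPM summed over all mice. Epithelial keratins dominate: summed TPM of 6 suprabasal tongue genes, led by Krt13, had a median of 120464 in N, 110205 in E mice, 78808 in Y and 41923 in EY, and that of 6 basal genes, led by Krt14, 9905, 11863, 19622 and 25063. In EY 5 of 6 suprabasal genes were lower, and of the basal genes 2 were higher and 2 lower. The 6 cycling genes, led by Pcna, were all higher in EY (median log2 fold change 2.90) and in E mice (1.7), and 4 of 6 in Y (1.82). Their summed TPM was 179.7, 214, 228, 171 and 223 in N, 357, 541, 628, 672 and 597 in E mice, 391, 549 and 550 in Y, and 990.2, 1047 and 1112 in EY (lowest, median, highest). The summed cycling markers of E and Y mice thus overlap, in a sum led by Pcna. The part of these layers and of cycling cells in the member values was not tested.

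Markers of other cells vary from mouse to mouse. Summed TPM of 7 leukocyte genes, led by Lyz2, was 699.9, 242.5, 112, 107 and 88.2 in N, 273, 188, 228, 32.4 and 499.8 in E mice, 65.5, 47.0 and 68.0 in Y, and 127, 185 and 274 in EY. For 5 genes of antigen presenting cells, led by H2-Aa, it was 380, 246, 158, 97.2 and 133 in N, 257, 211, 201, 92.2 and 342 in E mice, 178, 169 and 221 in Y, and 140.02, 250.1 and 449 in EY. N1 is thus the highest N mouse and E4 the lowest E mouse in both lists, as for the immunoproteasome genes. In EY against N 0 of 7 leukocyte genes were called by limma (1 at an unadjusted p below 0.05) or limma voom, and of the antigen presenting list 0 were higher and 1, Cd207, lower. Their part in the immunoproteasome values was not tested.

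For 5 neutrophil genes, led by Retnlg, summed TPM was 7.58, 1.35, 1.29, 0.978 and 2.25 in N, 4.61, 1.32, 2.13, 0.310 and 7.69 in E mice, 14.97, 2.41 and 23.6 in Y, and 1.48, 46.1 and 118 in EY. In EY 1 of 5, Ly6g, was higher, a gene at 0 in all N, E and Y mice and in EY6. Its reads in EY1 to EY6 were 7, 3, 3, 14, 8 and 0. Ly6g thus passed the filter only through EY mice, and its call rests on few reads. For 6 skeletal muscle genes, led by Acta1, it was 55.2, 227, 10.9, 36.9 and 48.3 in N, 34.7, 28.4, 28.7, 11.3 and 125 in E mice, 7.20, 131 and 16.5 in Y, and 32.5, 158 and 1194 in EY, with EY3 the highest. For 6 fibroblast genes, led by Dcn, it was 293, 204, 86.3, 73.9 and 61.5 in N, 93.2, 82.5, 65.7, 57.2 and 104 in E mice, 23.8, 44.1 and 34.5 in Y, and 24.2, 72.7 and 153 in EY. Muscle and fibroblast RNA is thus present in uneven amounts in each group.

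Summed TPM of 4 endothelial genes, led by Pecam1, was 0.956, 0.464, 0.481, 0.0676 and 0.271 in N, 0.444, 0.264, 0.229, 0.0555 and 0.894 in E mice, 0.293, 0.174 and 0.103 in Y, and 0.240, 0.690 and 3.17 in EY. In EY 0 of 6 muscle genes were higher (1 at an unadjusted p below 0.05), 0 of 6 fibroblast genes higher and 1, Dcn, lower, and 0 of 3 tested endothelial genes (0 at an unadjusted p below 0.05), with 0 higher in each by limma voom. No marker is at 0 in all 19 mice, and Cd3e, Cd79a, Ly6g, Retnlg, Mpo, Myh2, Cdh5, Kdr and Emcn are at 0 in some. The part of these cells in the member values was not tested. N1 and EY3 have the highest summed fibroblast and muscle markers in TPM as deposited. By transcript length Dcn is higher in N2 (748) than in N1 (360). Without N1 and EY3, a choice made after the values were seen, 1 member is higher in E.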

How the data were processed

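RNA of tongue epithelium from 19 mice in 4 groups was read from the processed table of TPM deposited by the authors, with 0 columns not mapped to a mouse. The submitters' processing notes list STAR 2.7.9, SAMtools 1.7, HTSeq 0.13.5 and DESeq2 1.34.0 with GRCm39, and do not state the step from counts to TPM. Steps between the values of each mouse gave whole reads, within 0.01 reads, for 24680 genes (9 genes were at 0 in every mouse), 8269674 to 11007304 reads per mouse. Member reads per mouse were 34849 to 42187 (N), 35242 to 38407 (E mice), 38892 to 48659 (Y) and 49808 to 70697 (EY). Genes at 0.1 TPM or more in 3 or more mice (22745) were fitted with limma 3.58.1 in R 4.3.3 on log2(TPM + 0.1), with 4 group means in 1 model and eBayes with a trend, and p-values were adjusted by Benjamini and Hochberg over all genes. The limma fit was tested on simulated data. Transcript lengths came from GENCODE M21, and tables and figures used pandas 2.3.3, matplotlib 3.10.9 and numpy 2.4.6 under Python 3.11.15. Alternatives tried were pseudocounts of 1 and 0.01, a filter of 1 TPM and none, quantile normalization, median-of-ratios scaling, the 3 N mice alone with both driver transgenes, only the groups compared, a replicate block, robust eBayes, limma voom on the reads, an adjusted p below 0.05 and each mouse left out. Chosen after seeing the data were TPM by transcript length, reads over the total, and leaving out N1 and EY3 together. Fully named genes are the catalytic and immunoproteasome members, and the largest and smallest change in EY of each other list, with Nfe2l1, Nfe2l2, Psme1, Psme2, Psme3, Irf1, Nlrc5 and Tap1. The members follow the symbol rule alone, while this family and the other lists were chosen with earlier results of these data known. Some genes first listed are not reported here.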

Additional observations from a re-analysis of the deposited data

Results flagged for a closer look

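Single mice were compared with the rest of their group by Dixon's test in groups of 5 and 6 for 43 items, which are the TPM of named genes and the isoform ratios, in 129 groups. Chance flags about 1 in 20 groups, the 3 Y mice were not tested, and 10 values stood apart, 8 of them in N1. N1 had Psmb8 at 32.4 TPM (others 4.35 to 10.3). N1 had Psmd14 at 5.27 TPM (others 5.93 to 6.14). N1 had B2m at 447 TPM (others 130.3 to 161). Irf1 in N1 was 23.3 TPM (others 2.30 to 7.85). Nlrc5 in N1 was 3.62 TPM (others 0.709 to 0.895). Tap1 in N1 was 25.3 TPM (others 7.63 to 11.2). The isoform ratio of Psmb8 to Psmb5 in N1 was 0.375 (others 0.0491 to 0.0995). The isoform ratio of Psmb9 to Psmb6 in N1 was 0.0903 (others 0.0151 to 0.0338). E1 had Psmb7 at 10.5 TPM (others 13.0 to 13.7). E1 had Psmd14 at 4.54 TPM (others 6.22 to 6.79). Their cause was not tested. No gene is named here for a difference between groups beyond the tests in the report.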

How the results depend on the processing

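Of 2788 values of 82 results under the alternatives 2626 stayed the same, 96 were weaker, 35 stronger and 31 reversed. In EY against N 1 member was lower after median-of-ratios scaling, DEGs were 3 after it and after quantile normalization, and the median log2 fold change was 0.54, 0.52, 0.78 (transcript length) and 0.75 (reads over the total). In Y against N members higher were 4 and 1 with these scalings, 12 with 3 N mice, 2 with only the groups compared, 11 by voom, 13 by transcript length, 11 in reads over the total and 7 to 21 without 1 mouse; the median was 0.36 and 0.28. In E against N members higher were 2 at an adjusted p below 0.05, 1 by transcript length, in reads over the total and without N1 and EY3 (chosen after seeing the data), with 1 DEG in each, and 0 to 2 without 1 mouse, DEGs 0 to 2; the median was 0.0217 and 0.00289. In EY against Y members higher were 2 with a pseudocount of 1, a filter of 1 TPM or the replicate block, 0 with both scalings, 3 N mice, only the groups compared, voom and reads over the total, 12 with 1 DEG at an adjusted p below 0.05, and 0 to 4 without 1 mouse; the scaled median was 0.13. In EY against E DEGs were 0 with both scalings, 1 by voom, transcript length and reads over the total, and 2 to 5 without 1 mouse; the median was 0.42, 0.43, 0.57 and 0.55. Reversed log2 fold changes in EY against N were Psmb5 -0.0272 and Psmd5 -0.00291 (quantile), Psmc5 -0.00826 (scaled), Psmd8 0.0551 (3 N mice), Psme4 -0.0290 and -0.0334 (both scalings), Nfe2l1 -0.31, -0.34, -0.0218 (3 N mice), -0.10 (voom), -0.0684 (transcript length) and -0.10 (reads over the total), and Ecpas -0.35, -0.38, -0.0112 (replicate block), -0.15 (voom), -0.12, -0.15, -0.00832 without N1 and EY3 and -0.0297 to 0.0635 without 1 mouse. In Y against N they were Psmb5 -0.11, -0.21, -0.0112 (voom), -0.0215 and -0.0123, and Psmd5 -0.0774 and -0.12. Psmb9 in EY against E was -0.00621 to 0.75 without 1 mouse. With the 3 N mice calls in EY were lost for Psmc5 (adjusted p 0.0151), Psmd5 (0.0212), Mafk (0.0139), B2m (0.0285), Psme2 (0.0133) and Irf1 (0.0523), in Y for Psmd14 (0.0168) and in EY against Y for Psmd13 (0.0119). With the replicate block members higher were 34 (EY against N), 17 (Y), 0 (E), 2 (EY against Y) and 28 (EY against E), Psmb5 in EY was called (adjusted p 0.00208), and calls were lost for Psmd5 (adjusted p 0.0136), Mafk (0.0167) and Irf1 (0.0102) in EY, and for Psmd13 in EY against Y (0.0306). In 24 pairs of same-numbered mice r was -0.043 to 0.076, with 0 above 0.1. Whether mice share a litter or a batch was not tested. The cause of these differences was not tested.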
